A study of Mus musculus with 6 samples.

Results

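Id3 and Id1 encode inhibitor of DNA binding proteins, and Tcf3, Tcf4 and Tcf12 encode the E proteins that they bind. The accessible regions assigned to these 5 genes were examined in natural killer (NK) cells of Rroid-deficient and wildtype mice. The members were the consensus peaks whose nearest gene, in the deposited annotation, was 1 of the 5 and whose distance to its start site was at most 100 kb. This gave 20 of 51775 peaks: 7 for Id3, 2 for Id1, 2 for Tcf3, 7 for Tcf12 and 2 for Tcf4. Another 13 peaks were assigned to Tcf4 at more than 100 kb, and none of the other genes had any beyond that distance. The assignment goes by distance alone and does not show which gene a region acts on.

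The assay was ATAC-seq, which reads out where a transposase can insert adapters into open chromatin. There were 3 libraries from Rroid-deficient mice and 3 from wildtype mice, all on the C57BL6 background. The Rroid locus encodes a long noncoding RNA and lies near Id2, and the way it was disrupted and the age of the animals are not given in the sources used here. Splenic cells were sorted as negative for CD3 and CD5 and positive for NK1.1 and NKp46, and per the labels 50000 cells were used for each genotype. Nothing in the labels ties the 3 libraries of a genotype to 3 different animals. The p-values therefore cover the spread among these libraries alone, which may be technical. Values are reads per peak that the authors divided by 1 factor per library, called normalized reads. Libraries are named by the number that ends their column, 4, 5 and 6 for Rroid deficient and 1, 2 and 3 for wildtype. Reads in peaks numbered 27572006 to 41167610 in Rroid-deficient and 39847736 to 47939665 in wildtype libraries. Near the Rroid locus, all 41 peaks with Gm17746 as nearest gene summed to 14235.9, 16219.0 and 14497.2 normalized reads in Rroid-deficient cells, against 23096.3, 27824.6 and 24767.4 in wildtype cells. As a description, 8 adjacent peaks of the 41 (chromosome 12, 26019809 to 26079794), picked for being at least 10-fold lower in every Rroid-deficient library, summed to 33.2, 30.5 and 45.9 normalized reads in Rroid-deficient cells, against 3783.5, 5166.9 and 4521.4 in wildtype cells.

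E proteins are basic helix-loop-helix (bHLH) transcription factors that bind E-box sites as dimers. Id proteins have the dimerization part but no DNA-binding part, so an E protein held by an Id protein no longer binds DNA. In NK cells and innate lymphoid cells Id2 is the main Id protein, while Id3 is best known from T and B lymphocytes and from immature lymphoid cells. Tcf3 encodes E12 and E47, Tcf12 encodes HEB, and Tcf4 encodes E2-2, which is known for its role in plasmacytoid dendritic cells.

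The bases before the start sites of Id3, Id2 and Tcf3 are shown because the start-site peaks of these genes moved in different directions. The 250 bases come from RefSeq's promoter table (build GRCm38.p6), run 5′ to 3′ on the gene's strand, and have each E-box, CANNTG, in capitals. CANNTG reads the same on the other strand, so that a single search covers both. The table held no entry for Id1 or Tcf4. In mm9 the Id3 start-site peak reached 346 bp before the annotated start site, the Id2 peak 542 bp and the Tcf3 peak 817 bp, more than 250 bp in each case.
Id3, GRCm38.p6 chr4:136143572-136143821, plus strand: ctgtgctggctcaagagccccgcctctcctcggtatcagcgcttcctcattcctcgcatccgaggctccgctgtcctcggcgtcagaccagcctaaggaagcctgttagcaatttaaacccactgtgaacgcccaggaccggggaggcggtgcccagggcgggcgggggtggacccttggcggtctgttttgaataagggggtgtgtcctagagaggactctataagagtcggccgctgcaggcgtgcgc
Id2, GRCm38.p6 chr12:25096093-25096342, minus strand: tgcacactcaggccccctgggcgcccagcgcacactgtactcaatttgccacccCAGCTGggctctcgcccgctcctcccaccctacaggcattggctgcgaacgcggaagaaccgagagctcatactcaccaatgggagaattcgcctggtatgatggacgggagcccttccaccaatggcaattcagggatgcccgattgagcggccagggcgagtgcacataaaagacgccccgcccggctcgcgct
Tcf3, GRCm38.p6 chr10:80433636-80433885, minus strand: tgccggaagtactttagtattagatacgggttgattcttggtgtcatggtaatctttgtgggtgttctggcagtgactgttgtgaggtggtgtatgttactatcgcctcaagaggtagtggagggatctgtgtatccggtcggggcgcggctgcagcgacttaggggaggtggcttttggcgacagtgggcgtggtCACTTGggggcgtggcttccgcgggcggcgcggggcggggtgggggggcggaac
The Id3 stretch held no CANNTG. The Id2 stretch held CAGCTG starting 196 bases before the start site, and the Tcf3 stretch held CACTTG starting 54 bases before it. Of 32851 promoter stretches of this length, 66.2% held at least 1 CANNTG and 13.0% held CAGCTG. These letters describe the sequence and do not show that a factor binds there.

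Id3 was the member whose chromatin differed most widely between the genotypes. All 7 of its peaks rose in Rroid-deficient cells, with ratios of group means of 2.08 to 8.45. The groups did not overlap at any of the 7 peaks. Over all peaks, 13.8% were called higher, 12.1% were called lower, and the groups did not overlap at 40.1%. The call needed an adjusted p under 0.05 (limma, Benjamini-Hochberg adjustment over all peaks), and fold changes are on the scale of log2 of normalized reads plus 1. Coordinates from here on are mm9.

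At the Id3 start site, the peak on chromosome 4 from 135699391 to 135700989, annotated to intron 1 of 2 and centred 453 bp after the start site, held 1252, 1594 and 1378 normalized reads in Rroid-deficient libraries 4, 5 and 6, against 528.0, 423.4 and 372.1 in wildtype libraries 1, 2 and 3. Every Rroid-deficient library lay above every wildtype library. The means were 1408 ± 173.3 in Rroid-deficient and 441.2 ± 79.5 in wildtype cells (SD, n = 3 each), and the fitted log2 difference was 1.68 (SE 0.13, adjusted p = 1.24e-07, limma). It stood on 944 to 1675 recovered reads in Rroid-deficient and 381 to 593 in wildtype libraries.

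The 2 other peaks within 10 kb behaved alike in direction. The peak 4669 bp after the start site, annotated as intergenic, was the highest Id3 peak in both genotypes. It held 2162, 2595 and 2313 normalized reads in Rroid-deficient cells, against 1224, 1132 and 1046 in wildtype cells, which put its log2 fold change at 1.05 (adjusted p = 7.9e-07, limma). The peak 3368 bp before the start site held 328.9, 410.3 and 296.2 normalized reads in Rroid-deficient cells, against 121.1, 90.7 and 111.3 in wildtype cells (log2 fold change 1.67, adjusted p = 3.29e-06, limma).

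Of the 4 intergenic peaks more than 10 kb upstream of Id3, 3 were ordinary peaks in Rroid-deficient cells and among the lowest of the table in wildtype cells. At the peak 31269 bp upstream, Rroid-deficient libraries held 164.4, 170.4 and 164.4 normalized reads, against 25.8, 17.6 and 15.6 in wildtype. Its log2 fold change, 3.05 with an SE of 0.27 (adjusted p = 4.04e-07, limma), was the highest among the 20 member peaks. Counted as normalized reads per kb of peak, it stood at percentile 54.6 of all peaks in Rroid-deficient and at percentile 0.3 in wildtype cells.

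The peak 36821 bp upstream held 206.9, 260.8 and 207.9 normalized reads in Rroid-deficient cells, against 55.2, 31.9 and 16.6 in wildtype cells (log2 fold change 2.82, adjusted p = 6.41e-06, limma). The peak 26611 bp upstream held 161.8, 134.2 and 122.1 in Rroid-deficient cells, against 24.9, 20.2 and 12.7 in wildtype cells (log2 fold change 2.83, adjusted p = 2.85e-06, limma). Per kb these stood at percentiles 60.8 and 50.4 of all peaks in Rroid-deficient and 2.8 and 0.3 in wildtype cells. The wildtype values here rest on 13 to 62 recovered reads per library, where counting error is large. The most distant peak, 43128 bp upstream, was less different, with 307.7, 348.4 and 309.5 normalized reads in Rroid-deficient cells, against 176.3, 144.5 and 113.3 in wildtype cells (log2 fold change 1.17, adjusted p = 9.78e-05, limma). Which libraries each consensus peak was first called in is not given in the sources used here, and a peak that entered the list through 1 genotype only had to differ between them.

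**Figure D1:**
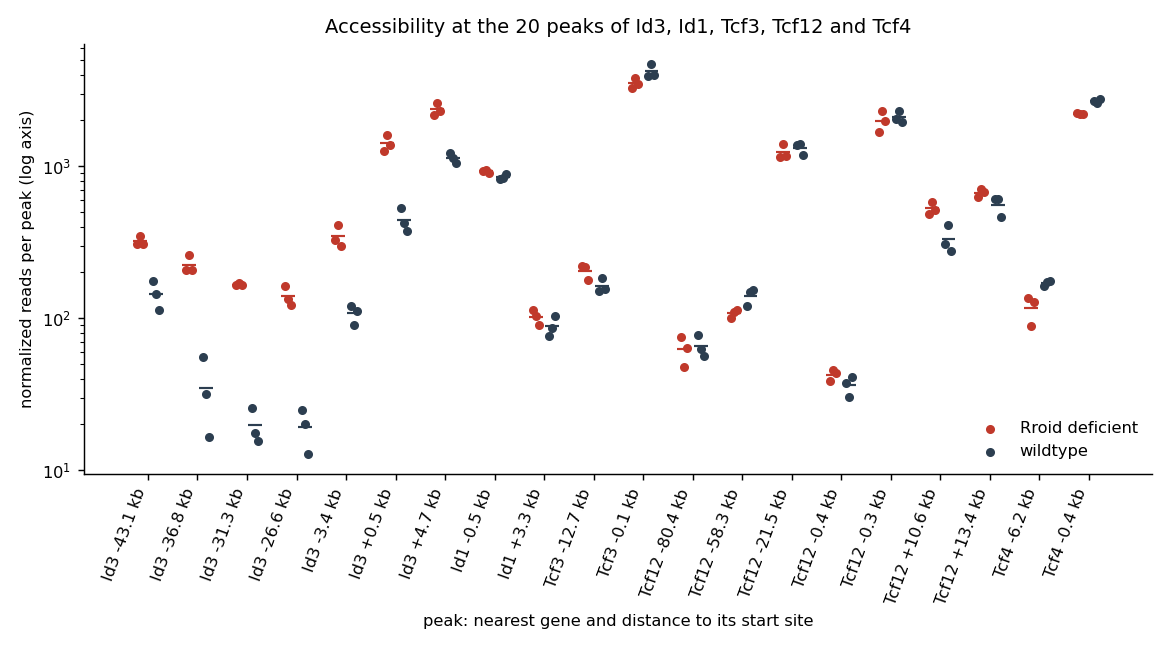
Normalized reads (log axis) at the 20 peaks of Id3, Id1, Tcf3, Tcf12 and Tcf4 within 100 kb of their start sites, with each point a library and each line a group mean (3 Rroid-deficient and 3 wildtype libraries). At all 7 Id3 peaks the Rroid-deficient points lie above the wildtype points, while at the Id1 and most Tcf12 peaks the points of the genotypes lie close together.

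Summed over the 7 peaks, Id3 held 4583, 5514 and 4791 normalized reads in Rroid-deficient libraries, against 2156, 1860 and 1688 in wildtype libraries. This sum was 2.61-fold higher in Rroid-deficient cells. Fitted beside the sums of all 16285 genes with a peak within 100 kb, its log2 fold change was 1.39 (SE 0.10, adjusted p = 5.03e-07, limma), against a median of -0.015 over all gene sums. Of those genes 10.8% were called higher and 9.51% lower. By log2 fold change Id3 ranked 155 of 16285.

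Within Id3, the ratio of summed group means was 3.91 over the upstream peaks and 2.44 over those near the gene. The 4 peaks over 10 kb upstream summed to 840.8, 913.9 and 804.0 normalized reads in Rroid-deficient libraries, against 282.3, 214.2 and 158.2 in wildtype libraries. The 3 peaks within 10 kb summed to 3742, 4600 and 3987, against 1873, 1646 and 1530. The upstream peaks thus held 16.6 to 18.3% of the Id3 sum in Rroid-deficient cells and 9.37 to 13.1% in wildtype cells, without overlap. These shares are a description, since 3 of the 4 upstream peaks were among the lowest of the table in wildtype and may have entered the peak list through the Rroid-deficient libraries.

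The rise did not stop at the peaks assigned to Id3. The next 4 peaks farther upstream, assigned to Rpl11, which encodes a ribosomal protein, also rose, which was noticed after the values were seen. They make an unbroken stretch of 11 called peaks over 79.9 kb (chromosome 4, 135625751 to 135705646). The peak at 135643571 to 135646375 held 2335, 2794 and 2262 normalized reads in Rroid-deficient cells, against 1021, 1006 and 740.4 in wildtype cells. In Rroid-deficient cells it was thus about as high as the highest Id3 peak. The peak at 135636943 to 135638293 rose 4.40-fold, to 510.6, 519.8 and 488.4 in Rroid-deficient cells, against 108.6, 126.0 and 110.4 in wildtype cells (adjusted p = 3.05e-08, limma).

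The next peak on each side of the stretch was not called. The outermost upstream peak of the stretch rose 1.62-fold, the least of the 11. The Rpl11 start-site peak held 1260, 1728 and 1549 normalized reads in Rroid-deficient cells, against 1394, 1699 and 1422 in wildtype cells, so that its groups overlapped (adjusted p = 0.998, limma). On the other side, none of the 10 peaks assigned to E2f2, Asap3 and Tcea3 within 100 kb rose, and 2 fell. E2f2 encodes a cell-cycle transcription factor, and its intronic peak 30.7 kb from the Id3 peak fell to 149.9, 260.8 and 198.3 in Rroid-deficient cells, against 434.5, 331.9 and 317.4 in wildtype cells (adjusted p = 0.003, limma). Among 4888 runs of adjacent peaks called higher in the whole table, 8 were as long as the Id3 run or longer, the Id3 run included.

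**Figure D2:**
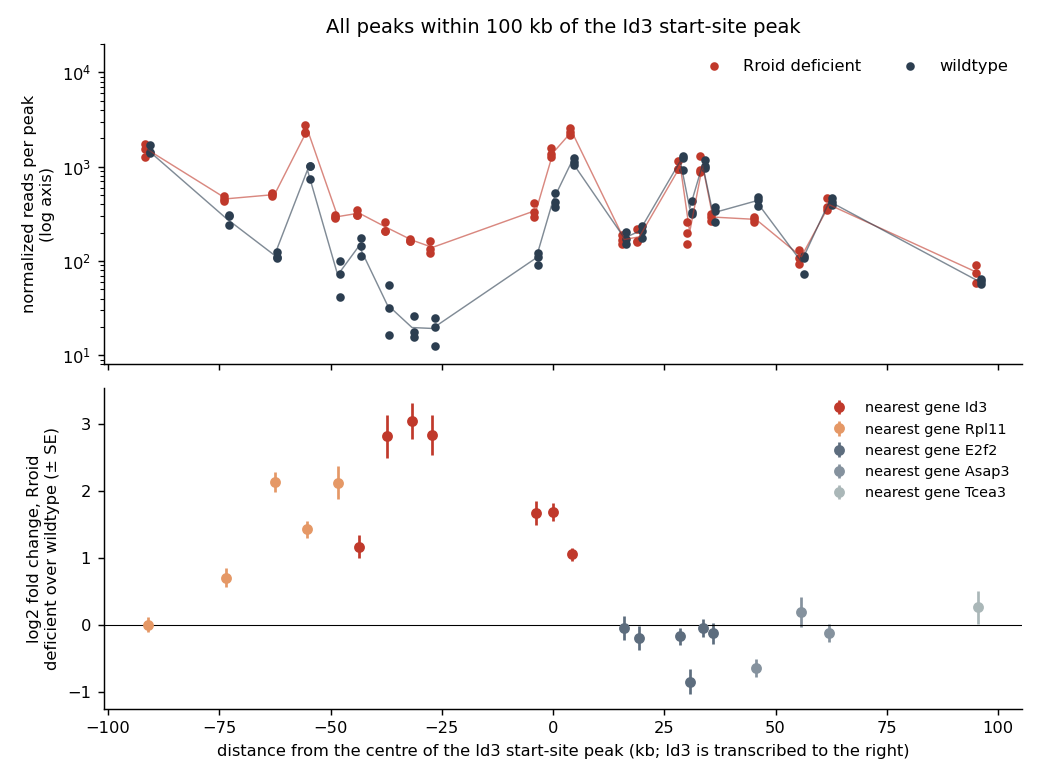
All 22 peaks within 100 kb of the Id3 start-site peak, by distance from its centre in kb. The upper panel gives normalized reads per library (log axis, lines join group means), and the lower panel gives the limma log2 fold change ± SE by nearest gene. The 11 adjacent peaks from 73.4 kb upstream to 4.2 kb downstream all lie above 0, with the maximum 31.7 kb upstream.

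Id1, the closest relative of Id3 among the members, showed no called peak. Its promoter peak (chromosome 2, 152560401 to 152562661) held 932.3, 936.7 and 897.1 normalized reads in Rroid-deficient cells, against 824.5, 829.2 and 890.8 in wildtype cells. The groups did not overlap, but the gap was small beside the spread. The log2 fold change was 0.12, with a 95% interval of -0.09 to 0.33 (adjusted p = 0.405, limma). The interval excludes a change as large as that of any Id3 peak. The peak 3324 bp after the start site held 112.7, 102.8 and 90.7 in Rroid-deficient cells, against 76.6, 85.7 and 102.6 in wildtype cells (adjusted p = 0.505, limma). By limma, edgeR and DESeq2, 0 Id1 peaks were called, and 0 had an unadjusted p under 0.05. The sum of both had a log2 fold change of 0.13 (adjusted p = 0.379, limma).

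The other Id genes give the frame for Id3. Id2 fell, as its promoter peak held 2882, 3240 and 3350 normalized reads in Rroid-deficient cells, against 4513, 5428 and 4990 in wildtype cells. The single peak of Id4 at its start site had low values and rose to 122.0, 90.4 and 67.7 in Rroid-deficient cells, against 57.9, 57.1 and 42.0 in wildtype cells (log2 fold change 0.80, adjusted p = 0.0365, limma; 0.0556 among the gene sums). Over the 4 Id genes, 8 of 15 peaks rose (53.3%, against 13.8% of all peaks) and 4 fell (26.7%, against 12.1%). Of the rising peaks 7 were those of Id3 and 1 that of Id4, and all 4 falling peaks were of Id2.

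A ratio within a library does not depend on how libraries are scaled. The Id3 start-site peak held 0.434, 0.492 and 0.411 times as many reads as the Id2 promoter peak in Rroid-deficient libraries, against 0.117, 0.078 and 0.0746 times in wildtype libraries. This ratio was 5.06-fold higher in Rroid-deficient cells. Against the Id1 promoter peak it was 1.34, 1.70 and 1.54 in Rroid-deficient libraries, against 0.640, 0.511 and 0.418 in wildtype libraries, so that Id3 was above Id1 in every Rroid-deficient library and below it in every wildtype library. Against the Tcf3 promoter peak the ratio was 0.383, 0.419 and 0.397, against 0.136, 0.0896 and 0.0931 in wildtype libraries. Id1 over Id2 was 0.324, 0.289 and 0.268, against 0.183, 0.153 and 0.179 in wildtype libraries. Of 6 ratios examined, the one within Id3 and the one within Tcf12 are given as descriptions only. For each of the others, the two-sided exact permutation test gave p = 0.1, the smallest that 3 against 3 libraries allow, and 0.1 after adjustment over the 6. Each of these holds the Id3 or the Id2 peak, which had already been seen to differ between the genotypes. The tests therefore add nothing to the peak results, and these ratios are descriptions too.

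**Figure D3:**
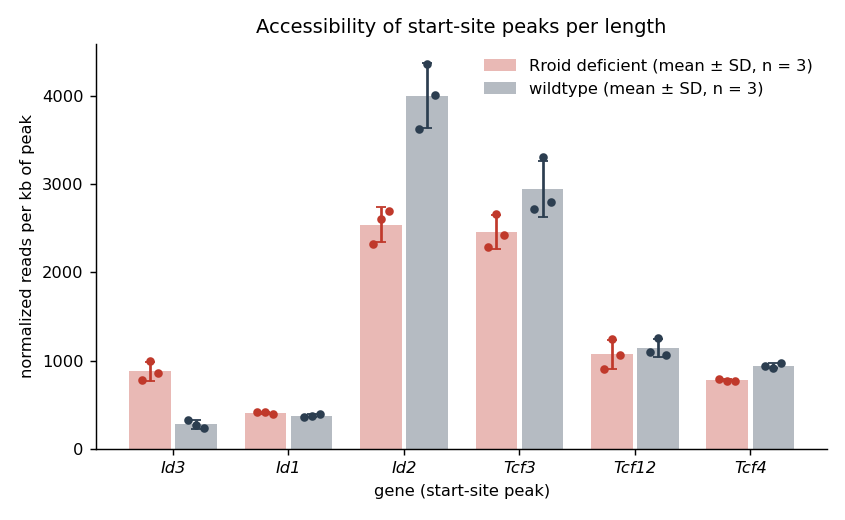
Normalized reads per kb of the start-site peak of Id3, Id1, Id2, Tcf3, Tcf12 and Tcf4, with bars for the mean ± SD and points for libraries (3 Rroid deficient, left, and 3 wildtype, right). Id3 is the lowest of the 6 in wildtype, and in Rroid-deficient cells it stands above Id1 and beside Tcf4.

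Per kb of peak, the order of the start-site peaks differed between the genotypes. In Rroid-deficient cells, Id2 (2540 normalized reads per kb) and Tcf3 (2460) were the highest and overlapped each other. They were followed by Tcf12 (1072), Id3 (880.1) and Tcf4 (777.2), where Id3 overlapped with both neighbours, and by Id1 (407.6). In wildtype cells Id2 (4004) was above Tcf3 (2943), and Tcf12 (1138), Tcf4 (941.4), Id1 (375.0) and Id3 (275.8) followed, with no overlap between any neighbours in that order. Id3 thus stood at 782.4 to 996.6 per kb in Rroid-deficient cells and, as the lowest of the 6, at 232.6 to 330.0 in wildtype cells.

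The E-protein genes differed much less than Id3. Of their 11 peaks, 1 rose and 3 fell, while 7 had no call, and the median log2 fold change was -0.09. Without the shallowest Rroid-deficient libraries, 4 and 6, all 3 falling peaks kept a log2 fold change below 0, at -0.935 to -0.138, but 1 kept its call, the Tcf4 peak 6161 bp upstream. With scaling to total reads 1 kept its call as well, the Tcf4 promoter peak, with log2 fold changes of -0.498 to -0.196. After loess it was the upstream Tcf4 peak again, with log2 fold changes of -0.584 to -0.165. Against 12.1% of all peaks called lower, 3 of 11 is a share of few peaks. None of these 11 peaks, all within 100 kb, reached the size of the smallest Id3 change. Beyond 100 kb, 1 Tcf4 peak did, as given below.

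Tcf3 had a high promoter peak and a small distal peak. The promoter peak (chromosome 10, 79895788 to 79897215) held 3268, 3808 and 3472 normalized reads in Rroid-deficient cells, against 3894, 4725 and 3997 in wildtype cells, 83.6% of the wildtype mean. Its groups did not overlap, and it fell by 0.26 on the log2 scale (SE 0.09, adjusted p = 0.0459, limma). The call was lost without wildtype library 2 (adjusted p = 0.239), wildtype library 3 (0.0523), Rroid-deficient library 4 (0.167) or Rroid-deficient library 6 (0.149), and under DESeq2 (0.0551). The peak 12737 bp upstream held 218.8, 218.0 and 177.7 in Rroid-deficient cells, against 150.5, 184.8 and 156.3 in wildtype cells, with overlap (adjusted p = 0.18, limma). The Tcf3 sum had a log2 fold change of -0.23 (adjusted p = 0.0808, limma), which passed the test under DESeq2 (0.038) and without Rroid-deficient library 5 (0.0363).

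Tcf4 is a long gene, and most of the peaks assigned to it lay beyond 100 kb from its start site. The promoter peak (chromosome 18, 69503595 to 69506439) held 2249, 2201 and 2186 normalized reads in Rroid-deficient cells, against 2682, 2600 and 2755 in wildtype cells. The groups were tight and apart, and it fell by 0.28 on the log2 scale (SE 0.08, adjusted p = 0.0179, limma), to 82.6% of wildtype. The peak 6161 bp upstream held 135.3, 88.5 and 128.2 in Rroid-deficient cells, against 162.1, 173.9 and 174.8 in wildtype cells, and fell by 0.56 (adjusted p = 0.0453, limma). The promoter call was lost without wildtype library 3 (adjusted p = 0.0537) or Rroid-deficient library 6 (0.0891). The upstream call was lost without wildtype library 1 (0.0578), 2 (0.123) or 3 (0.11), or without Rroid-deficient library 5 (0.174) or 6 (0.0667). The sum of both fell by 0.29 (adjusted p = 0.0156, limma), a call lost without Rroid-deficient library 6 (0.0845).

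Beyond 100 kb, 1 of 13 Tcf4 peaks rose and 12 had no call. The rising peak lies in intron 6 of 19, 201.9 kb from the start site, and held 148.5, 164.7 and 175.3 normalized reads in Rroid-deficient cells, against 72.1, 64.7 and 91.8 in wildtype cells (log2 fold change 1.10, adjusted p = 0.000749, limma). It thus went against the direction of the promoter. The highest intronic peak, in intron 8, held 1024, 986.2 and 973.3 in Rroid-deficient cells, against 1252, 1115 and 1208 in wildtype cells, without overlap but above the threshold (adjusted p = 0.0582, limma). The highest peak with no call, 148.1 kb upstream, held 1304, 1173 and 1153 in Rroid-deficient cells, against 1179, 1086 and 1217 in wildtype cells, with overlap. The peak just outside the limit, 103.8 kb upstream, held 82.2, 34.3 and 73.8 in Rroid-deficient cells, against 60.6, 65.5 and 74.2 in wildtype cells.

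Tcf12 rose at a peak within intron 3 and had no call at its promoter. The main promoter peak (chromosome 9, 71958372 to 71960219) held 1680, 2295 and 1973 normalized reads in Rroid-deficient cells, against 2032, 2320 and 1962 in wildtype cells, with overlap. Its log2 fold change was -0.09, with a 95% interval of -0.32 to 0.14 (adjusted p = 0.567, limma). In intron 3, the peak 10558 bp after the start site (71947630 to 71949270) rose 1.59-fold. It held 482.7, 581.6 and 517.5 in Rroid-deficient cells, against 307.2, 408.3 and 276.4 in wildtype cells (log2 fold change 0.69, SE 0.15, adjusted p = 0.00252, limma). This call held in each alternative that was run, with an adjusted p of up to 0.0147.

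The neighbouring peak in the same intron held 627.3, 712.0 and 671.0 in Rroid-deficient cells, against 603.7, 603.2 and 464.0 in wildtype cells. The groups did not overlap, but the difference did not pass the test (adjusted p = 0.12, limma), except when libraries were scaled to total reads in peaks (0.0495). Summed, the intronic pair held 0.661, 0.564 and 0.602 times the reads of the promoter peak in Rroid-deficient libraries, against 0.448, 0.436 and 0.377 in wildtype libraries, a pair chosen after its values were seen. The other 4 Tcf12 peaks had no call. They were an intergenic peak 21458 bp upstream, of 1144 to 1390 in Rroid-deficient and 1177 to 1390 in wildtype cells, and 3 small peaks with means of 42.6 to 108.3 in Rroid-deficient and 36.2 to 140.8 in wildtype cells. The lowest of these is annotated as the promoter of another transcript, NM_001253863, and held 38.5, 45.7 and 43.5 in Rroid-deficient cells, against 37.4, 30.3 and 41.0 in wildtype cells, with overlap. The Tcf12 sum had a log2 fold change of 0.02 (95% interval -0.17 to 0.22, adjusted p = 0.888, limma).

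**Figure D4:**
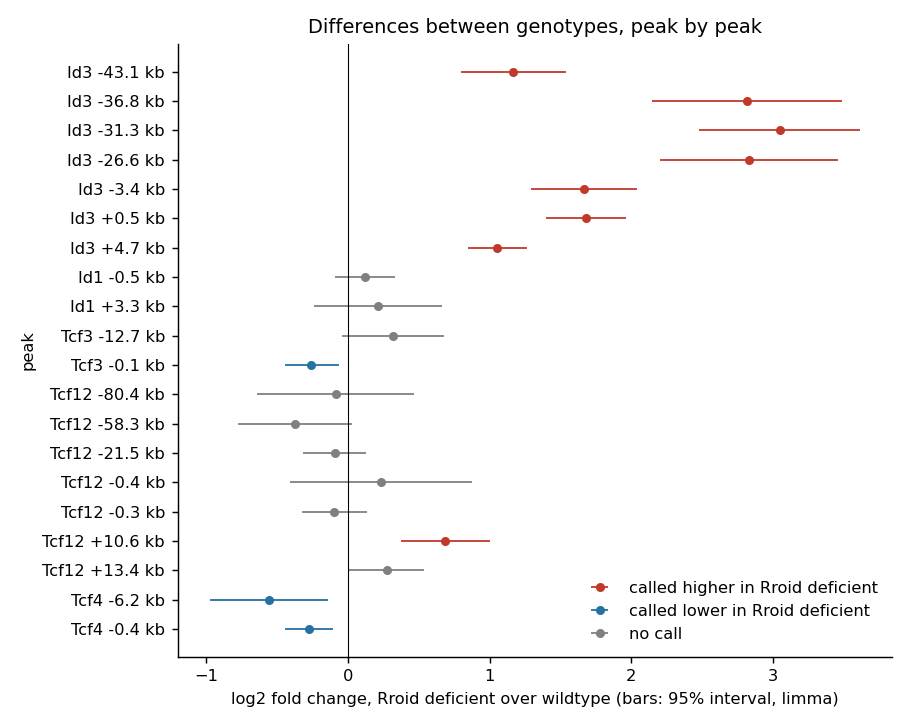
Log2 fold change, Rroid deficient over wildtype, at each of the 20 member peaks, with unadjusted 95% intervals from limma and colours for the call at an adjusted p under 0.05. The 7 Id3 peaks lie at 1.05 to 3.05, and the 3 falling peaks, of Tcf3 and Tcf4, lie at -0.56 to -0.26.

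Among start-site peaks of other genes, 5 were most like that of Id3, by the root mean square difference of centred log2 values over the 6 libraries. Out of 11842 peaks within 1 kb of a start site, these belonged to Kit (0.133), Nsg2 (0.151), Pm20d2 (0.152), Sh3pxd2a (0.155) and Coro2b (0.158). Kit encodes the stem cell factor receptor of progenitor cells, and its peak held 1833, 2097 and 1797 normalized reads in Rroid-deficient cells, against 616.2, 609.9 and 574.3 in wildtype cells. The likeness rests on 6 libraries in 2 groups and is given as a description.

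Genes of the wider pathway were counted in 3 lists. Near lymphocyte genes known as E-protein targets, 41 of 143 peaks rose (28.7%, against 13.8% of all peaks) and 7 fell (4.9%, against 12.1%), with a median log2 fold change of 0.16. Rising peaks numbered 9 of 12 at Ccr7, a chemokine receptor, 7 of 7 at Cxcr5, 7 of 13 at Tcf7, which encodes TCF-1, 6 of 7 at Kit and 4 of 18 at Foxo1, a forkhead transcription factor. The smallest p of the list was that of the Kit start-site peak described above (adjusted p = 9.06e-09, limma). At the Ccr7 peak 16198 bp upstream, the mean was 307.4 ± 28.0 in Rroid-deficient and 87.0 ± 27.2 in wildtype cells (SD, n = 3 each). Against this direction, Cdk6, a cyclin-dependent kinase, fell at 5 of 8 peaks. Per kb in wildtype, the Cxcr5 start-site peak stood at percentile 3.6 of all peaks and the Ccr7 peak 16198 bp upstream at 16.6. How many rising peaks entered the peak list through the Rroid-deficient libraries alone is not known, and any that did had to differ. The list was not tested as a set, and no peak was assigned within 100 kb to Cd4, Cd79a, Ptcra or Vpreb1.

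Cofactors and bHLH partners of E proteins were near the background, with 9 of 54 peaks higher (16.7%, against 13.8% of all peaks) and 8 lower (14.8%, against 12.1%). Cbfa2t3, which encodes the corepressor ETO2, rose at 4 of 9 peaks. Its peak 2878 bp upstream had a mean of 5668 ± 614.1 in Rroid-deficient and 3076 ± 310.8 in wildtype cells (SD, n = 3 each; adjusted p = 3.36e-06, limma). Genes known to induce Id genes were near it too, with 23 of 147 peaks higher (15.6%) and 24 lower (16.3%). Tgfbr1, a TGF-beta receptor, rose at 5 of 10 peaks and Ets1, a transcription factor, at 6 of 15, with 1 lower. The Tgfbr1 peak 42616 bp upstream had a mean of 1064 ± 122.4 in Rroid-deficient and 267.1 ± 25.9 in wildtype cells (SD, n = 3 each; adjusted p = 1.43e-08, limma). Egr3, an immediate early factor that induces Id3 in thymocytes, fell at 4 of 8 peaks, Nfil3 at 4 of 12 and Tgfbr3 at 3 of 5. Smad7 had 3 rising and 4 falling peaks of 12, Tgfbr2 had 3 and 1 of 18, and Smad3 had 2 and 2 of 22.

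Peaks near marker genes of cell types were counted beside the Id3 result. Near 11 NK marker genes, 35 of 78 peaks fell (44.9%, against 12.1% of all peaks) and 6 rose (7.69%, against 13.8%). Their summed value was 84803 to 102540 in Rroid-deficient and 105410 to 121613 in wildtype libraries. When single libraries were left out, the calls near NK markers numbered 25 to 38 lower and 5 to 6 higher. Over all peaks the lower calls then numbered 4039 to 6304. Klrb1c, which encodes the NK1.1 antigen used in the sort, fell at 9 of 9 peaks. Gzma fell at 7 of 8 peaks, Gzmb at 4 of 6 and Tbx21 at 4 of 11. Eomes fell at 1 of 5 and Klrd1 at 1 of 4. Itga2 fell at 5 and rose at 1 of 10 peaks, and Prf1 fell at 3 and rose at 1 of 8. Ncr1, which encodes NKp46, the other positive marker of the sort, rose at 2 and fell at 1 of 9 peaks, and Il2rb and Klrk1 each had 1 rising and 0 falling peaks. Near 8 genes of immature NK cells, 21 of 62 peaks rose (33.9%) and 4 fell (6.45%). Their sums were 42641 to 44210 in Rroid-deficient and 34410 to 36092 in wildtype libraries. With single libraries left out, 14 to 19 peaks near these genes were called higher and 2 to 4 lower. Kit rose at 6 of 7 peaks, Emb at 6 of 14 with 1 lower, and Thy1 at 5 of 10, while Xcl1 fell at 3 of 10. The E-protein target list above also holds Kit, Cd27 and Il7r, so their 6, 1 and 2 rising peaks count in both lists. Near T-cell markers 18 of 52 peaks rose (34.6%) and 5 fell (9.62%). The sums overlapped, at 20658 to 21379 in Rroid-deficient and 19224 to 21446 in wildtype libraries. Of the 18 rising peaks, 8 belonged to Ctla4 and 7 to Cd28, while Bcl11b fell at 3 of 14 peaks and Cd6 at 1 of 2. Among the antigens that the sort excluded, Cd5 rose at 2 of 3 peaks, 1 peak of Cd3g rose, 1 of Cd3d fell and 3 of Cd3e had no call. Near B-cell markers 4 of 13 peaks rose (30.8%) and 0 fell, with low sums of 1534 to 1866 in Rroid-deficient and 821 to 1102 in wildtype libraries. These rising calls numbered 1 to 4 when single libraries were left out.

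Myeloid markers had 0 rising and 1 falling peak of 9, and helper innate lymphoid cell markers 3 and 4 of 28. No marker peak was at 0 in any library, and no peak within 100 kb was assigned to Cd4, Cd79a, Ms4a1, Pax5, Lyz2, Csf3r or Rora. Some rising marker peaks were among the lowest per kb in wildtype, at percentile 1.0 for 1 Ctla4 peak and 1.1 for the Cd3g peak. Such peaks may have entered the peak list through the Rroid-deficient libraries, and if so had to differ. The part of these cell types in the Id3 result was not tested. In a bulk sample, more cells of a kind with open Id3 chromatin and more open chromatin per cell cannot be told apart.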

How the data were processed

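The build was mm9 and the software MACS2 2.1.0, BWA, HOMER, DiffBind, Trimmomatic 0.32, bcl2fastq 2.16.0 and R 3.1.1, all per the submitters' processing notes. Their roles, any shift of reads to the cut site and any removal of duplicates are not given in those notes as used here. The authors deposited a normalized signal for 51775 peaks. Within 0.01, 100.0% of values in each library were whole reads divided by 1 factor, and the median peak held 151 to 224 reads, a counting error of 6.68 to 8.14%. Columns show the genotype but not the sample, and were used as unpaired replicates.

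Log2 values plus 1 were fitted with limma 3.58.1 (R 4.3.3, intensity trend) over all peaks, and sums per gene within 100 kb over all genes, with Benjamini-Hochberg adjustment. Exact permutation tests used scipy 1.17.1. The fit was tested on simulated data. Alternatives were other scalings, pseudocounts, filters and limits, leaving out libraries, and edgeR 4.0.16 and DESeq2 1.42.0 on the recovered reads.

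Members and gene lists were chosen with earlier results of these data known. By a written rule, values per library are given for every Id3 and Id1 peak, for start-site and called peaks of the E proteins and for the highest peak with no call. In the pathway lists, genes with 3 or more called peaks and the peak with the smallest p are named, and so are the 5 start-site peaks most like that of Id3. The run of peaks around Id3, the Gm17746 peaks, and other picks made from their values are marked as such.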

Additional observations from a re-analysis of the deposited data

How the results depend on the processing

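Each of the 7 Id3 peaks kept its call and direction in every alternative that gave a value, and the log2 fold change of the Id3 sum ran from 1.30 to 1.54. The 8 rising member peaks remained 8 when single libraries were left out, and fell to 5 when low peaks were left out (a mean value at or above the median) and to 3 within 10 kb, where fewer peaks are counted. The calls of the 3 falling peaks were less stable and numbered 1 with scaling to total reads, 1 after loess and 0 to 2 when single libraries were left out. At an adjusted p under 0.01 they numbered 0 by limma, 0 by edgeR and 1 by DESeq2, and at an unadjusted p under 0.05 they numbered 3. The cause was not tested. The log2 fold change of the Tcf3 sum passed the test under DESeq2 (-0.22) and ran from -0.29 to -0.14 when single libraries were left out. That of the Tcf4 sum lost its call at a limit of 0.01 (-0.29) and ran from -0.31 to -0.27 when single libraries were left out. Without libraries 4 and 6, which leaves 1 Rroid-deficient library, it was -0.315. The Id1 sum had no value when low genes were left out. The filter on a value of 10 in 3 libraries removed 0 peaks. No paired analysis was possible because the labels pair no Rroid-deficient library with a wildtype library. In addition, the Rroid-deficient columns carry numbers that match no sample title. Depth limits the upstream Id3 peaks most, with 13 reads in the lowest wildtype library.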
